A study of Mus musculus with 11 samples.

Results

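Kitl, which encodes stem cell factor, lies on mouse chromosome 10 beside a run of genes that were examined together: Cradd, Socs2, Ube2n, Btg1, Dcn, Lum, Dusp6 and Atp2b1. These 9 genes were named because several of them were low in PN1a lesions in the same 11 samples described here, so their PN1a to PN1b differences are given as a description and without a p-value. Every probe set annotated to a single gene among them was taken. Of the 9 genes, 8 were measured, by 10 probe sets, out of 8251 genes and 12422 probe sets in all, and no probe set was named to Atp2b1 in the array annotation used. The question asked of the data was whether these neighbors were low together in PN1a or gene by gene.

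The samples were 5 glands of the PN1a line and 6 of the PN1b line, taken 8 weeks after transplantation into mice that the methods give as 3 weeks old. Both are premalignant lines of Trp53-/- mammary epithelium on the Balb/c background, each grown in the cleared fat pads of wild-type syngeneic females, so the p53-null epithelium is shared by the 2 lines and the stroma, vessels and immune cells of each gland come from a wild-type host. Each line descends from 1 outgrowth, and the 2 outgrowths grew in opposite glands of the same mouse, so a difference between the lines is a difference between 2 lineages. RNA was hybridized to Affymetrix MG_U74Av2 arrays, and the values are linear intensities. Whether each sample is a separate mouse is not given, so a p-value reflects only how far these samples vary.

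Stem cell factor binds the receptor tyrosine kinase Kit and sustains mast cells, melanocytes, germ cells and blood progenitors. It is made by stromal, endothelial and epithelial cells. The other genes of the stretch have unrelated roles. Socs2 encodes a suppressor of cytokine signaling that restrains growth hormone signaling through STAT5. Dusp6 is a phosphatase that inactivates ERK, and Btg1 is an antiproliferative protein that binds the CCR4-NOT deadenylase. Dcn (decorin) and Lum (lumican) are small leucine-rich proteoglycans that fibroblasts lay down around collagen fibrils. Ube2n (Ubc13) joins ubiquitin into chains together with a cofactor, Cradd (RAIDD) is a death domain adaptor for caspase-2, and Atp2b1 is a calcium pump of the plasma membrane.

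Promoter sequence of 6 of the 9 genes was present in the RefSeq table used (build GRCm38.p6). The 250 bases before the start of Kitl, Btg1 and Dusp6 are shown, because these 3 genes were low together in the same PN1a samples as described below. Capitals mark TATAAA and, on the opposite strand, CCAAT, which reads ATTGG here.
Kitl promoter, chr10:100015571-100015820, plus strand: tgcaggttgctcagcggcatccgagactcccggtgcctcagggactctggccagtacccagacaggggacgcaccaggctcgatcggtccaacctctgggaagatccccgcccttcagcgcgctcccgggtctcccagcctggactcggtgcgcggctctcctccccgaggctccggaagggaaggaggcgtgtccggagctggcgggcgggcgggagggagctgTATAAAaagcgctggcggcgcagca
Btg1 promoter, chr10:96616751-96617000, plus strand: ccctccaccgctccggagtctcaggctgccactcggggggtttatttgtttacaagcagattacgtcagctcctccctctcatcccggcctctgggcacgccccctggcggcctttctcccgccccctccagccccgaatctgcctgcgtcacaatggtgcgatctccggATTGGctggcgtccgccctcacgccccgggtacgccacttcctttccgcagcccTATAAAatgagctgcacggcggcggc
Dusp6 promoter, chr10:99262981-99263230, plus strand: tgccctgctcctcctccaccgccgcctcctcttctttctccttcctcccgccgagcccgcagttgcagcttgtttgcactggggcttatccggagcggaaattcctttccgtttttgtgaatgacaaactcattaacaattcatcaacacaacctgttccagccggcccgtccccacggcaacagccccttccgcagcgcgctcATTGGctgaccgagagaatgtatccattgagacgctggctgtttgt
TATAAA began 25 bases before the start in Kitl and 26 bases before it in Btg1, and Dusp6 had none in this window. CCAAT was found on the opposite strand 80 bases before the start of Btg1 and 46 bases before that of Dusp6. Searched on both strands, TATAAA occurred in 12.4% and CCAAT in 33.8% of the 32851 promoters of this length in the table. The 3 promoters therefore did not share 1 arrangement of these motifs, and a match is a description of letters only.

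PN1a 1 and PN1a 2, whose titles are plain numbers, stood apart from the other 9 samples, as was known before the present comparisons were made. Their 18S ribosomal RNA probe sets read 119 to 276, against 3.07 to 32.7 in the other 9 samples. Their ratio of the 3' to the 5' Gapdh probe set was 0.829 and 0.883, against 1.25 to 5.21 in the others. The same ratio for beta-actin, 1.37 and 1.49, lay within the 1.32 to 4.82 of the others. Values of the members, and of other genes where they change most, are therefore given below with and without these 2 samples, called number-titled, and PN1a 3 to 5 are called letter-titled. The titles of all PN1a samples share 1 ending with PN1b 5 and PN1b 6, while PN1b 1 to 4 have range-like titles and other endings. What the titles and endings stand for is not given, and the range titles could denote pools. The luminal keratins Krt8 and Krt18 ranged from 52.7 to 657 and from 73.0 to 936 over the samples, both lowest in PN1a 1, whereas basal Krt14 lay near the lower limit of the table throughout (1.01 to 4.44).

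Kitl was lower in each PN1a sample than in any PN1b sample. Its intensity was 42.8, 34.5, 100.4, 92.4 and 146 in PN1a 1 to 5, against 201, 209, 228, 221, 176 and 174 in PN1b 1 to 6. The number-titled samples were the lowest of all, and the letter-titled ones lay between them and PN1b. The log2 fold change was -1.47 (SE 0.33), or 2.76-fold lower in PN1a. Without the number-titled samples it was -0.86 (SE 0.20), or 1.81-fold lower, and the lines still did not overlap. Among the 7 samples that share a title ending it was -1.27 (SE 0.54).

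Socs2, near the other end of the run, also separated the lines. Its intensity was 17.9, 11.2, 29.0, 38.3 and 37.0 in PN1a 1 to 5, against 79.9, 49.2, 76.1, 74.5, 66.7 and 59.7 in PN1b 1 to 6. The highest PN1a sample was below the lowest PN1b sample. The log2 fold change of -1.47 (SE 0.30) was close to that of Kitl, and it was -0.95 (SE 0.21) without the number-titled samples and -1.39 (SE 0.49) among the samples that share a title ending. Kitl and Socs2 were 2 of the 8 genes in which all PN1a samples lay below all PN1b samples, which held for 2.38% of all probe sets. The same 2 genes were the ones in which the letter-titled PN1a samples alone lay below all PN1b samples, against 4.55% of all probe sets.

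**Figure D1:**
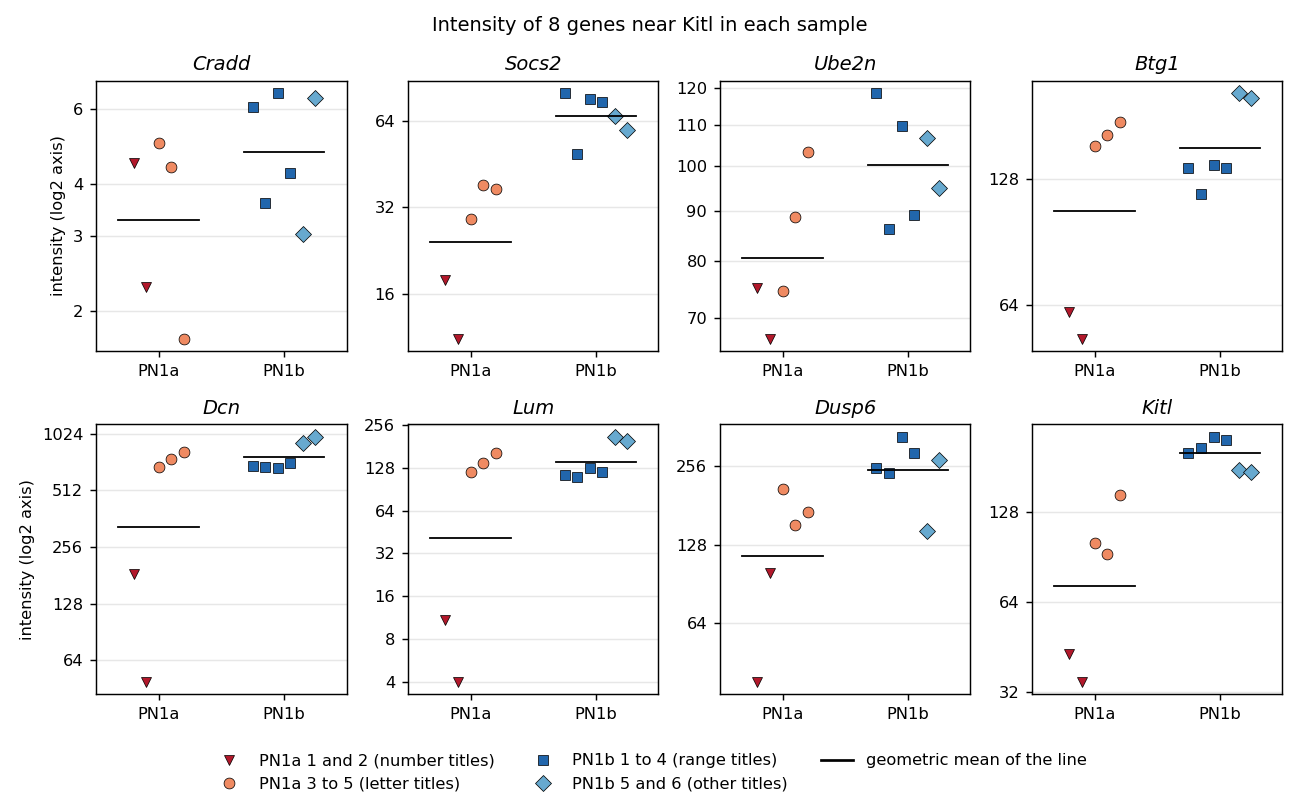
Intensity of each of the 8 measured genes (vertical axis, log2 scale, arbitrary units) in 5 PN1a and 6 PN1b samples, with 1 point a sample and a line at the geometric mean of each line. Kitl and Socs2 separate the lines, while in Dcn, Lum and Btg1 only PN1a 1 and PN1a 2 lie below the PN1b samples.

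Dcn and Lum, neighbors in the gene order, were low in the number-titled samples alone. Dcn read 184 and 48.8 in PN1a 1 and 2 and 680.3, 749.6 and 820.3 in PN1a 3 to 5, against 689.8, 680.3, 676, 719, 917 and 989 in PN1b 1 to 6. Lum read 10.9 and 4.0 in PN1a 1 and 2 and 119, 137 and 163 in PN1a 3 to 5, against 114, 109.9, 128, 119, 211 and 198 in PN1b 1 to 6. In both genes the letter-titled PN1a samples lay within the range of PN1b. The log2 fold change between the lines was -1.23 (SE 0.61) for Dcn and -1.79 (SE 0.84) for Lum, the lowest of the 8 genes. Without the number-titled samples these values were -0.04 (SE 0.20) and -0.03 (SE 0.26), so 2 of 5 PN1a samples carried the difference.

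Btg1, like Dcn and Lum, was below the PN1b range in the number-titled samples alone. Its intensity was 61.4 and 53.1 in PN1a 1 and 2 and 153, 163 and 175 in PN1a 3 to 5, against 136, 118, 138, 136, 205 and 199 in PN1b 1 to 6. The letter-titled samples lay above PN1b 1 to 4 and below PN1b 5 and 6. The log2 fold change was -0.50 (SE 0.33) over all samples and 0.11 (SE 0.22) without the number-titled samples, a change of sign. Within the shared title ending, where PN1b is represented by its 2 samples highest in Btg1, it was -0.91 (SE 0.52).

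Dusp6 lay between the patterns. Its brighter probe set read 38.1 and 99.7 in PN1a 1 and 2 and 209, 152 and 170.1 in PN1a 3 to 5, against 251, 241, 331, 286, 144 and 269 in PN1b 1 to 6. PN1b 5 lay below the letter-titled PN1a samples, and the other 5 PN1b samples lay above all PN1a samples. The log2 fold change was -1.09 (SE 0.38), with -0.49 (SE 0.26) when the number-titled samples were left out and -0.77 (SE 0.62) within the shared ending. The second Dusp6 probe set lay near the lower limit of the table (1.09 to 6.50) and gave 0.17 (SE 0.36).

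Ube2n and Cradd overlapped between the lines. Ube2n ran from 66.7 to 103 in PN1a, against 86.2 to 119 in PN1b, with a log2 fold change of -0.31 (SE 0.18), and -0.19 without the number-titled samples. Cradd was dim on both of its probe sets, at 1.72 to 4.99 in PN1a, against 3.03 to 6.54 in PN1b, on the brighter one, and at 1.78 to 2.39 in PN1a, against 1.60 to 4.89 in PN1b, on the other. Their log2 fold changes were -0.54 (SE 0.32) and -0.48 (SE 0.25), and the brighter one gave -0.51 without the number-titled samples. In Ube2n 3 PN1a samples lay below the lowest PN1b sample, and in the brighter Cradd probe set 2 did.

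Over the whole run, all 8 genes had a log2 fold change below 0 on their brightest probe set, as did 51.4% of all probe sets. Their median was -1.16, against -0.03 over all 8251 genes. A probe set was called where limma gave an adjusted p below 0.05 with a change of 1.5-fold or more. On this rule 2 of the 10 probe sets were called lower in PN1a, those of Kitl and Socs2, against 1.62% of all probe sets called lower, and none was called higher, against 0.869%. Since the genes were picked on this contrast, nothing is read from these counts. Without the number-titled samples the median of the 8 genes was -0.34, 7 of 8 were below 0 and none was called by limma, with 0.66% of all probe sets called lower. Within the shared title ending the median was -1.09 and none was called either, with 0.0966% of all probe sets called lower.

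The genes in between gave values that the choice of members had not used directly, although the limits of the stretch had been. After Ndufa12 and up to Kitl, 22 protein-coding genes are annotated, of which 14 were measured and 6 are not members. Of these 6, 5 had a log2 fold change below 0, with a median of -0.73. Epyc (epiphycan, a proteoglycan of cartilage) was at -1.49, Kera (keratocan) at -0.91, Eea1 (an early endosome tether) at -0.88, Nudt4 (a diphosphoinositol polyphosphate phosphatase) at -0.59 and Galnt4 (a glycosyltransferase) at -0.23. Mrpl42, a protein of the mitochondrial ribosome that lies between Socs2 and Ube2n, went the other way at 0.39. None of the 6 was called (limma gave none of them an adjusted p below 0.05). Without the number-titled samples their median was -0.34, with Epyc at -0.77 and Eea1 at -0.19. Mrpl42 and Ube2n thus stood next to Socs2 with values far from its own. Mrpl42 was near the lower limit of the table in every sample (1.88 to 4.32), as was Kera (1.30 to 6.68), so their changes are poorly measured. Epyc was near that limit in PN1a 1 and 2 (1.56 and 1.69), against 7.62 to 11.8 in PN1b.

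Outside the stretch the medians were nearer 0, with genes in both directions. Several of these genes were near the lower limit of the table in every sample, so their changes are poorly measured. Examples are Slc25a3 (1.13 to 4.47) and Metap2 (1.23 to 3.68) before Cradd, and Myf5 (1 to 3.76) and Pawr (1.25 to 5.54) after Kitl. The 10 measured genes before Cradd had a median log2 fold change of -0.02 and ran from -0.81 to 0.45. The 10 after Kitl had a median of -0.16 and ran from -1.56 to 1.20, and 4 of them were at an unadjusted p under 0.05. Without the number-titled samples these medians were -0.16 and -0.22, against -0.34 over the 14 genes of the stretch. At the edges, Ndufa12, a subunit of respiratory complex I, was at -0.48 (SE 0.35) just before Cradd, and Slc6a15, an amino acid transporter, was at 0.01 (SE 0.16) just after Kitl. Within these flanks Tmpo, a lamina-associated protein of the nucleus, was called lower in PN1a at -0.81, Csrp2, a LIM domain protein of smooth muscle, was called higher at 1.20, and Phlda1 was at -1.56 without a call. None of the 3 was called without the number-titled samples, where Tmpo was at -0.82, Csrp2 at 1.045 and Phlda1 at -0.56. The other Tmpo probe sets were at 0.31 and -0.62 over all samples, without a call.

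**Figure D2:**
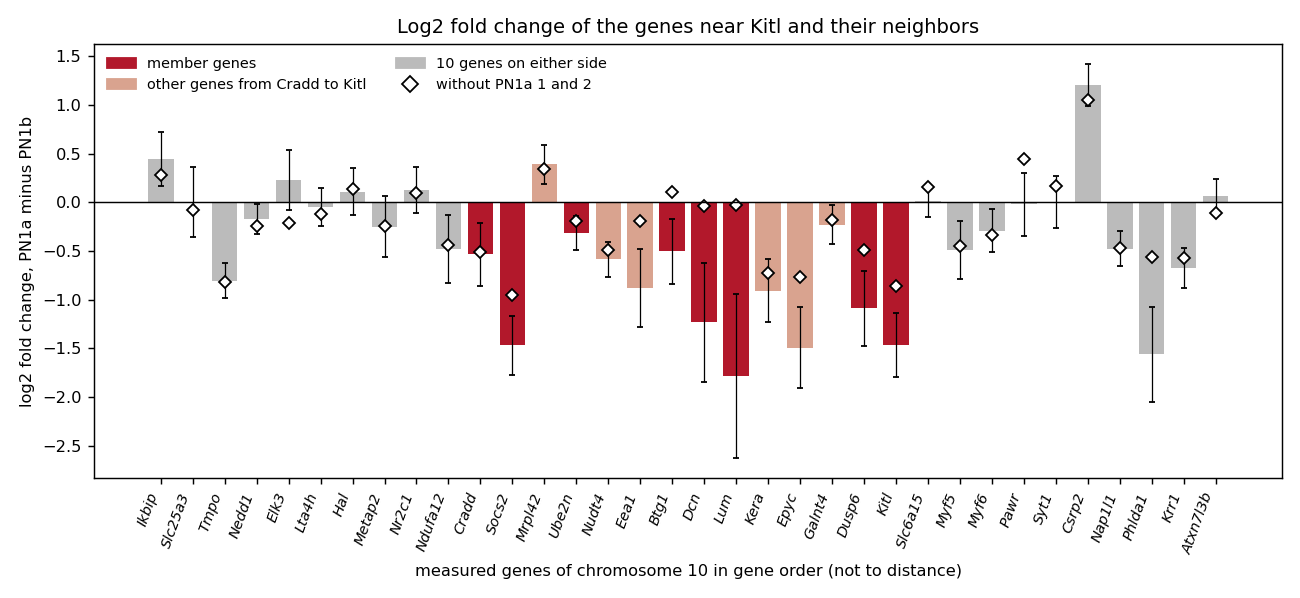
Log2 fold change, PN1a minus PN1b (vertical axis), of 34 measured genes of chromosome 10 in gene order, from 10 genes before Cradd to 10 after Kitl. Bars show all 11 samples with the standard error of the fit and diamonds the values without PN1a 1 and PN1a 2. In Dcn, Lum and Btg1 the diamonds lie at or above -0.04, while Socs2 and Kitl stay at -0.95 and -0.86.

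The number-titled and letter-titled PN1a samples were then set against each other. The choice of the genes rested on PN1a values that include these samples, so the members' values in this contrast are also a description, without a p-value, and nothing is read from the counts. The fit was made with limma across all 12422 probe sets (4 groups by line and title form, Benjamini-Hochberg). In it 6 of the 10 member probe sets, and 6 of the 8 genes, were called lower in the number-titled samples, against 5.33% of all probe sets, and none was called higher, against 1.98%. Lum was 21.0-fold lower (-4.39 on the log2 scale, SE 0.35) and Dcn 7.90-fold lower (-2.98, SE 0.42). Both values rest on 2 samples against 3. Leaving out 1 sample at a time gave -5.11 to -3.67 for Lum and -3.94 to -2.03 for Dcn, with the ends set by PN1a 1 and PN1a 2. Lum, dim in the number-titled samples, was at -2.74 on the log2(value + 16) scale.

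Kitl, Btg1, Dusp6 and Socs2 had values close to each other in this contrast. Kitl was at -1.53 (SE 0.25), Btg1 at -1.52 (SE 0.21), Dusp6 at -1.51 (SE 0.40) and Socs2 at -1.29 (SE 0.29). The Dusp6 value was -0.82 without PN1a 1 and the Socs2 value -0.95 without PN1a 2, and neither was then called. Ube2n (-0.32), both Cradd probe sets (-0.07 and 0.14) and the dim Dusp6 probe set (1.29) were not called. The median of the 8 genes was -1.52, against 0.03 over all genes. The same 6 genes were those in which both number-titled samples lay below all other 9 samples, a pattern of 10.1% of all probe sets.

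Among the 6 other genes of the stretch, Epyc (-1.82) and Eea1 (-1.71) were called lower in the number-titled samples. Epyc read 1.56 and 1.69 in PN1a 1 and 2, near the lower limit of the table, and 2.99 to 8.11 in PN1a 3 to 5, so the size of its change is poorly measured. Mrpl42, Nudt4, Kera and Galnt4 were not, at 0.13, -0.23, -0.45 and -0.12. In the flanks 0 of 10 genes before Cradd (1 at an unadjusted p under 0.05) and 1 of 10 after Kitl passed, namely Phlda1 at -2.49.

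Sample by sample, the median of the 8 genes relative to the PN1b mean was -1.98 and -2.03 in PN1a 1 and 2. In PN1a 3, 4 and 5 it was -0.24, -0.15 and -0.21, against -0.29 to 0.25 in the PN1b samples. All 8 genes lay below the PN1b mean in both number-titled samples. In the letter-titled samples 6, 7 and 4 of the 8 did, and in the PN1b samples 3 to 7 did. Over the stretch, 8 of the 14 measured genes were called lower in the number-titled samples, while the dim Mrpl42 lay above the PN1b mean in both, by 0.31 and 0.63. Of the members, only Socs2 and Kitl lay below the PN1b range in all 3 letter-titled samples.

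**Figure D3:**
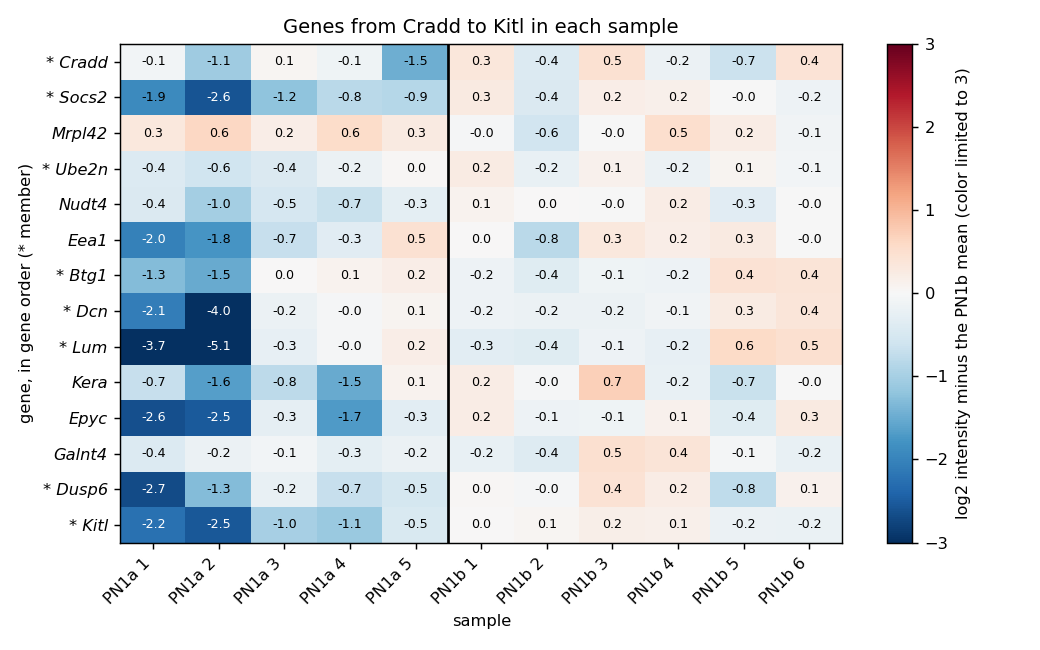
Log2 intensity minus the mean of the PN1b samples for the 14 measured genes from Cradd to Kitl (rows, in gene order) in 5 PN1a and 6 PN1b samples (columns), with colors limited to 3 in either direction. Blue cells cover most of the rows in PN1a 1 and PN1a 2, and in PN1a 3 to 5 they are strongest in Socs2, Kitl and single cells of Cradd, Epyc and Kera.

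Dcn and Lum are fibroblast genes, so the other genes of fibroblasts and matrix were read beside them. In whole glands, fewer cells of a type and less RNA per cell cannot be told apart. Of 16 measured fibroblast markers 1 was called lower in the number-titled than in the letter-titled samples, and the median of the list was -0.58. Their summed intensity was 4276 and 1206 in PN1a 1 and 2 and 2815 to 2960.1 in PN1a 3 to 5, against 1826.5 to 3517 in PN1b, and no marker was at the table's lower limit. The sum is carried by a few bright genes, in PN1a 1 by Fn1 (917), Col1a2 (843) and Col1a1 (729). The median of the 16 markers relative to the PN1b mean was 0.31 in PN1a 1 and -0.91 in PN1a 2.

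The matrix genes split within PN1a 1. The called marker was Dpt (dermatopontin, which binds decorin), at 5.24 and 2.41 in PN1a 1 and 2 and 33.4 to 70.03 in PN1a 3 to 5, against 26.2 to 103 in PN1b (-3.82, adjusted p = 0.00033 for number-titled minus letter-titled). Ogn (osteoglycin), another small leucine-rich proteoglycan, read 5.46 and 1.61 in PN1a 1 and 2 and 25.3 to 46.5 in PN1a 3 to 5, against 17.4 to 53.4 in PN1b (-3.54, adjusted p = 0.00068). These 2 genes followed Dcn and Lum. Col1a1 and Col1a2 did not follow them in PN1a 1. Col1a1 was 729 and 249 in PN1a 1 and 2 and 488 to 588 in PN1a 3 to 5, against 263 to 666 in PN1b, and Col1a2 was 843 and 181 in PN1a 1 and 2 and 553 to 626 in PN1a 3 to 5, against 333 to 676 in PN1b. The highest sample of both genes was PN1a 1, while PN1a 2 was the lowest, and neither contrast passed (-0.35 and -0.62, adjusted p = 0.66 and 0.51). Col3a1 was 391 and 147 in PN1a 1 and 2 and 501 to 613 in PN1a 3 to 5, against 388 to 666 in PN1b (-1.22, adjusted p = 0.052). Thy1, a surface protein of fibroblasts, was 62.7 and 28.2 in PN1a 1 and 2 and 88.6 to 95.0 in PN1a 3 to 5. In PN1b it was 34.8 to 103, so PN1a 1 lay within that range (-1.12, adjusted p = 0.072 for number-titled minus letter-titled). Fn1 (fibronectin) was 917 in PN1a 1 and 95.7 to 191 elsewhere.

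**Figure D4:**
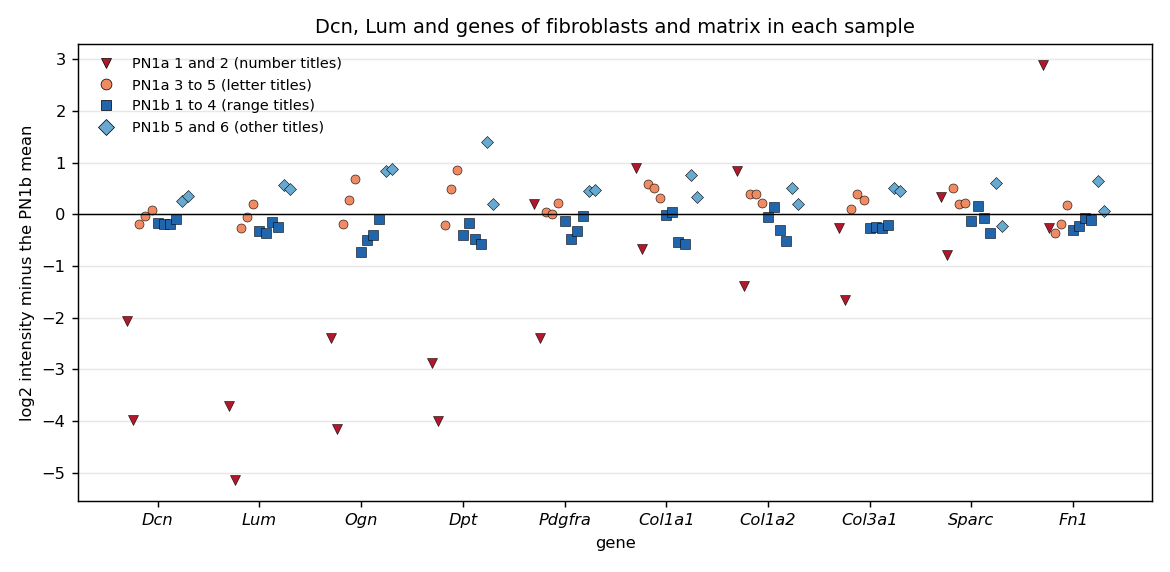
Log2 intensity minus the PN1b mean (vertical axis) of Dcn, Lum and 8 genes of fibroblasts and extracellular matrix, 1 point a sample. Dcn, Lum, Ogn and Dpt are low in both PN1a 1 and PN1a 2, while Col1a1, Col1a2 and Fn1 are highest in PN1a 1.

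Other marker lists also moved with the number-titled samples. Of 8 endothelial markers 5 were called lower than in the letter-titled samples, with sums of 108 to 232 in the number-titled and 317 to 369 in the letter-titled samples, against 250.4 to 375 in PN1b. Of 11 luminal markers 4 were called lower, with sums of 281 to 788 in the number-titled and 1478 to 1798 in the letter-titled samples, against 1205 to 2129 in PN1b. Of 13 immediate early genes 10 were called lower, with sums of 619 to 739.6 in the number-titled and 2939 to 3317 in the letter-titled samples, against 2729 to 4998 in PN1b. No marker of the fibroblast, endothelial or luminal lists lay at the lowest value in any sample. The 18S signal, these lists and the member genes therefore moved in the same 2 samples, and their part in the result was not tested. Between the lines as a whole, 0 of 16 fibroblast, 0 of 8 endothelial and 0 of 11 luminal markers were called by limma (0, 1 and 5 at an unadjusted p under 0.05), while 3 of 12 macrophage markers were called higher in PN1a, with sums of 971 to 1584 in PN1a, against 341 to 968 in PN1b. None of the 12 was called without the number-titled samples, within the shared title ending or with the ending as a block (9, 4 and 5 at an unadjusted p under 0.05). Of the luminal markers, 2 were called higher in PN1a by limma without the number-titled samples. They were Krt19 (4.09, adjusted p = 0.00076) and Muc1 (1.99, adjusted p = 0.0021).

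Single genes of further marker lists were called lower in PN1a than in PN1b. All 13 immediate early genes were below 0 between the lines, with a median of -1.32, 10 at an unadjusted p under 0.05 and 1, Nr4a1, called (-2.95, adjusted p = 0.024), and none was called without the number-titled samples (4 at an unadjusted p under 0.05). Of 10 basal epithelial markers 9 were below 0, 6 were at an unadjusted p under 0.05 and Trp63 was called (-1.55, adjusted p = 0.026). Of 10 T and B cell markers 9 were below 0, 3 were at an unadjusted p under 0.05 and Pou2af1 was called by limma (-1.86, adjusted p = 0.00013). Pou2af1 read 2.69 to 3.84 in PN1a, against 9.19 to 16.8 in PN1b. Of 8 adipocyte markers Lpl was called (-1.81, adjusted p = 0.041). The adipocyte sums were 66.9 to 180.0 in PN1a, against 212 to 285 in PN1b, with no overlap. These sums rest largely on Lpl itself, which read 20.4 to 118 in PN1a, against 170 to 229 in PN1b. Of the 8 adipocyte markers 4 were below 0, with a median of -0.05, so the sums do not describe the list as a whole. Trp63, Lpl and Pou2af1 were also called without the number-titled samples, at -1.48, -0.94 and -1.91. Krt17, of the same basal list as Trp63, was then called higher in PN1a by limma (1.99, adjusted p = 0.0027). Pou2af1 was also called within the shared title ending (-1.75). No immediate early, basal or adipocyte gene was called there or with the ending as a block (1 of each list at an unadjusted p under 0.05). Between the title forms of PN1b, 6 of 10 basal markers were at that level (median 0.88), with none called. The part of these lists in the member values was not tested.

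The partners of the member genes were followed in lists written for the purpose. Kit, the receptor of stem cell factor, read 21.4, 72.0, 49.9, 59.7 and 46.9 in PN1a 1 to 5, against 74.5, 45.9, 60.1, 86.2, 69.6 and 106 in PN1b 1 to 6 (-0.62, SE 0.30, adjusted p = 0.29). The lines overlapped, and 0 of 16 genes of Kit signaling were called by limma between the lines (2 at an unadjusted p under 0.05) or between the title forms of PN1a (6 at that level). Mast cells depend on Kit, and 0 of 11 mast cell markers were called between the lines (1 at an unadjusted p under 0.05), with sums of 40.2 to 110.3 in PN1a, against 53.2 to 127 in PN1b. Within PN1a, 3 of the 11 (Cma1, Hdc and Tpsb2) were called lower in the number-titled samples, at -1.50, -2.55 and -1.13.

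Genes of cytokine signaling around Socs2 were not called by limma between the lines (0 of 13, also at an unadjusted p under 0.05, median -0.18). In the number-titled samples 4 of 13 were called lower than in the letter-titled ones, namely the receptor-associated kinases Jak2 (-1.94, adjusted p = 0.0045) and Jak1 (-1.10, adjusted p = 0.021) and the feedback inhibitors Cish (-0.81, adjusted p = 0.039) and Socs3 (-1.48, adjusted p = 0.043). Socs3 and Cish thus resembled Socs2 within PN1a, and neither was called between the lines. For Dusp6, 0 of 7 genes of MAPK phosphatases and ERK feedback were called between the lines (1 at an unadjusted p under 0.05, median 0.17). Of these 7, 4 were called lower in the number-titled samples: Dusp1 (-3.50, adjusted p = 7.5e-05), Dusp2 (-1.50, adjusted p = 0.0076), Dusp16 (-1.59, adjusted p = 0.021) and Spred2 (-1.11, adjusted p = 0.023).

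Of the 9 genes of the BTG/TOB family and the CCR4-NOT complex, Tob1, a relative of Btg1, was called lower in PN1a than in PN1b. Its intensity was 12.1, 9.51, 25.1, 36.0 and 27.1 in PN1a 1 to 5, against 62.2, 53.4, 67.2, 82.7, 36.8 and 72.0 in PN1b 1 to 6 (-1.63, SE 0.34, adjusted p = 0.026). PN1b 5 was the only PN1b sample near the letter-titled samples. None of the 9 genes was called without the number-titled samples or with the title ending as a block (1 at an unadjusted p under 0.05 in each). Within PN1a, Btg2 (-2.33, adjusted p = 0.0011) and Tob1 (-1.44, adjusted p = 0.022) were called lower in the number-titled samples and Cnot3 (1.35, adjusted p = 0.042) higher. Of 7 small leucine-rich proteoglycan genes other than Dcn and Lum, 0 were called between the lines (3 at an unadjusted p under 0.05, median -0.91), and Ogn, Epyc and Fmod were called lower in the number-titled samples. Epyc and Kera in this list are genes of the stretch described above, so the list is not separate from it.

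The named partners of Ube2n and Cradd were not called between the lines. Ube2v1 and Ube2v2, the cofactors with which Ube2n works, were at 0.12 (adjusted p = 0.73) and -0.33 (adjusted p = 0.37), and 0 of 12 genes of this list, from -0.73 to 0.30, were called by limma (1 at an unadjusted p under 0.05). Casp2, the caspase that Cradd recruits, was at -0.34 (adjusted p = 0.46), and 0 of 9 genes of the death domain list, from -1.34 to 0.76, were called (3 at an unadjusted p under 0.05). Within PN1a, Traf6 (-1.09) and Tnfaip3 (-2.38) of the Ube2n list and Fas (-3.42) and Bcl10 (-1.62) of the death domain list were called lower in the number-titled samples, and Fadd (1.60) higher. For Atp2b1, which has no value of its own, the related pumps of the endoplasmic reticulum Atp2a3 (-5.20, adjusted p = 7.8e-06) and Atp2a2 (-1.33, adjusted p = 0.022) were 2 of 7 calcium pump genes called lower in PN1a than in PN1b, and Atp2a3 alone was called without the number-titled samples.

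Within PN1b, the range-titled samples (PN1b 1 to 4) were compared with PN1b 5 and PN1b 6 in the same fit. None of the 10 member probe sets was called by limma (3 were at an unadjusted p under 0.05), against 0.298% of all probe sets called lower in this contrast. The nearest were Btg1 at -0.62 (SE 0.20) and Lum at -0.80 (SE 0.33), each lower in all 4 range-titled samples than in the other 2. Kitl went the other way, at 0.30 (SE 0.23), with 201 to 228 in the range-titled samples, against 174 and 176 in PN1b 5 and 6. The title form coincides with the title ending here, so the 2 cannot be told apart.

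The median over chromosome 10 was also lower in PN1a with the run near Kitl left out. Of its 370 measured genes 264 (71.4%) had a log2 fold change below 0, with a median of -0.24, and the medians of the other 19 chromosomes ran from -0.20 to 0.12. With the 14 genes of the stretch left out, 251 of 356 were below 0, with a median of -0.23. The median of chromosome 10 relative to the PN1b mean was -0.24, -0.31, -0.16, -0.19 and -0.15 in PN1a 1 to 5, against 0.08, -0.01, 0.11, -0.03, -0.06 and -0.04 in PN1b 1 to 6, with no overlap between the lines. Both number-titled samples lay below all 3 letter-titled ones. In number-titled minus letter-titled PN1a, 41 of the 370 genes were called lower, against 532 of 8251 over all chromosomes. Chromosome 9 was close to chromosome 10, with 68.0% of 437 genes below 0 and medians of -0.25 to -0.17 in PN1a, against -0.13 to 0.09 in PN1b, also with no overlap.

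Without the number-titled samples the median of chromosome 10 was -0.19, and chromosome 9 was then the lowest at -0.20. In 10 consecutive bins of 37 genes along chromosome 10, all medians were below 0, at -0.06 to -0.49. The lowest bin ran from Hal to Cct2 and holds the stretch, and without the number-titled samples its median was -0.24, the same as in another bin that ran from Srgn to Col18a1. Genes of 1 chromosome are not independent replicates, and no test was made of these medians.

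**Figure D5:**
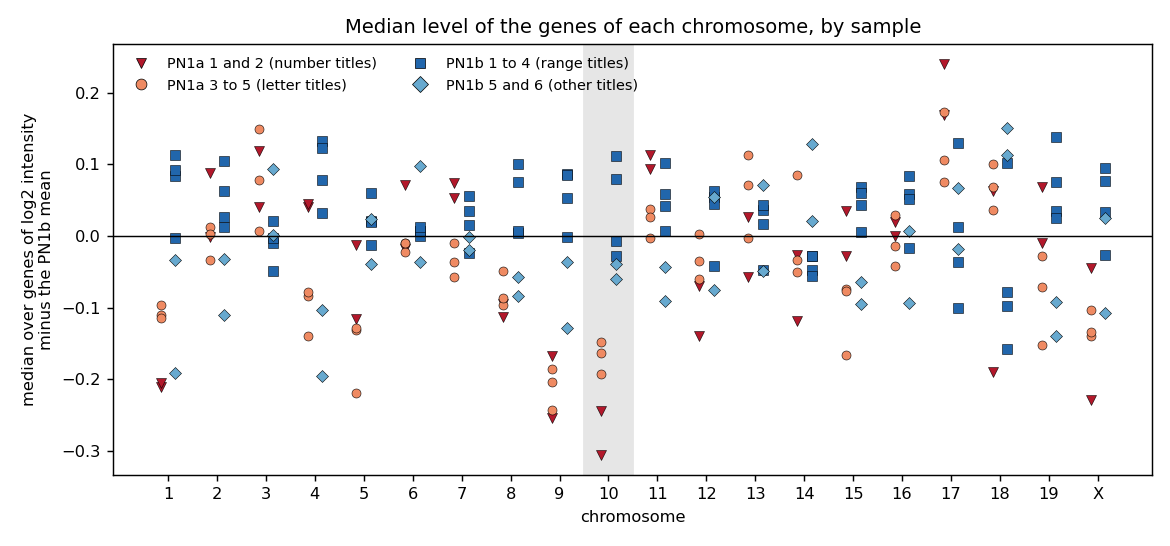
Median over the genes of each chromosome of log2 intensity minus the PN1b mean (vertical axis), 1 point a sample, for 5 PN1a samples (left of each tick) and 6 PN1b samples (right of it). On chromosome 10 (shaded) the PN1a samples lie between -0.31 and -0.15, below all PN1b samples.

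The 5 genes most like Kitl over the 11 samples lay on other chromosomes. Likeness was measured as the root mean square distance between log2 values, each centred on its own mean. The median distance of all other probe sets with a single symbol was 0.996. The nearest were Hs3st1 (a heparan sulfate sulfotransferase, 0.213), Mt2 (metallothionein 2, 0.215), Sparcl1 (a secreted matrix protein, 0.220), Atp2a2 (0.243) and Lratd1 (0.248), none of them on chromosome 10. Mt2 read 252, 202, 653, 695 and 1003 in PN1a 1 to 5, against 1209, 1409, 1448, 1399, 1053 and 704 in PN1b 1 to 6. Of the members, Socs2 ranked 8 among these probe sets (0.263), Dusp6 ranked 190 on its brighter probe set, Btg1 472 and Dcn 859. Ube2n ranked 1303 and the Cradd probe sets 3482 and 3731. Lum ranked 6805 (1.07) and the dim Dusp6 probe set 9930 (1.34), both farther from Kitl than the median. These ranks are among the 10833 probe sets with 1 symbol, that of Kitl left out. The centred log2 values were not scaled, so a larger fall in the same samples also adds distance. Lum, like Kitl, was lowest in PN1a 1 and 2. It was at -4.39 in number-titled minus letter-titled PN1a, against -1.53 for Kitl, so its rank does not separate size from pattern. Chromosome 10 holds 370 of the 8251 measured genes, so most near genes would lie elsewhere in any case. The members were chosen on values that also enter this measure, so nothing is read from their ranks.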

How the data were processed

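Gene expression was measured in 5 PN1a and 6 PN1b mammary gland samples. The authors processed the Affymetrix MG_U74Av2 arrays in dChip (PM-MM model, quantile normalization, version not given in the sources used here) and deposited linear intensity values with a lowest value of 1, at which 0.817% of values lay. Median intensities were 8.57 to 9.51, and precision is limited by how many arrays there are. Log2 was taken without a pseudocount, 66 control probe sets were left out and 12422 were tested. The array annotation, updated by gene identifier, gave 1 symbol to 10833 probe sets, several to 396 and none to 1193. Where a gene had several probe sets, the brightest on average stands for it. Gene order and promoters came from RefSeq (GRCm38.p6), and the files name no build.

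Fits used R 4.3.3 and limma 3.58.1 (lmFit and eBayes, two-sided, Benjamini-Hochberg over all 12422 probe sets, called where the adjusted p was below 0.05 and the change 1.5-fold or more), and were tested on simulated data. Python 3.11.15 with matplotlib 3.10.9 drew the figures. The member genes, the marker and partner lists and the contrasts were chosen with earlier results of these data known, so no p-value is given for a member. Named genes were the members, the measured genes of the stretch and 10 on either side, up to 4 called genes a list, binding partners, and the 5 genes most like Kitl. The matrix genes Ogn, Col1a1, Col1a2, Col3a1, Thy1 and Fn1, 18S RNA and the keratins were named after their values were seen. Alternatives were the methods' t-test, title ending as a fixed or random block or alone, repeated quantile normalization, median centring, a filter at the median, log2(value + 16), robust eBayes with a trend, averaged probe sets of a gene, no number-titled samples, and each sample left out in turn. At most 1.24% of values were equal between any 2 samples, which all counted as separate replicates.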

Additional observations from a re-analysis of the deposited data

How the results depend on the processing

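The PN1a to PN1b values of the members depended most on the 2 number-titled samples. Without both, the median of the 8 genes was -0.34 in place of -1.16, Btg1 turned to 0.11, the dim Dusp6 probe set turned to -0.34 (and to -0.25 without PN1a 2 alone, with 0.39 as its highest value when 1 sample was left out), and 0 of 10 probe sets were called in place of 2, with 82 called lower overall in place of 201. The 2 member calls were lost with the methods' t-test after Benjamini-Hochberg (0, with 95 overall), with title ending as a fixed block (0, with 19 overall) and with the shared ending alone (0, with 12 overall), and 1 was left with title ending as a random block (104 overall). Overall counts were 303 with the filter at the median and 442 with the methods' t-test at its own threshold. Leaving out 1 sample at a time gave 0 to 2 member calls (0 without PN1a 1, PN1b 1, PN1b 3 or PN1b 4), 79 to 377 overall and medians of -1.40 to -0.75.

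In number-titled minus letter-titled PN1a, leaving out 1 sample gave 4 to 6 member calls and 398 to 659 overall. Kitl, Btg1, Dcn and Lum were called under every alternative run. Dusp6 lost its call with repeated quantile normalization and without any 1 of PN1a 1, PN1a 3 to 5 and PN1b 1 to 4, and Socs2 without PN1a 2, PN1a 4 or PN1a 5. The dim Dusp6 probe set was called higher without PN1a 1 (2.20). The brighter Cradd probe set turned to 0.42, 0.22 and 0.13 without PN1a 2, PN1a 3 or PN1a 4, and its lowest such value was -0.55.

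In range-titled minus other PN1b, log2(value + 16) called 1 member, Lum (-0.72), with 95 probe sets called lower overall in place of 37. The filter at the median gave 104 and eBayes with trend and robust 110, and leaving out 1 sample 14 to 58 with 0 member calls. Values near 0 changed sign: Socs2 -0.0026 with repeated quantile normalization, Ube2n 0.062, 0.045 and 0.075 without PN1b 2, PN1b 4 or PN1b 5, the dim Dusp6 probe set 0.013 without PN1b 4, and Cradd -0.36 without PN1b 5. Leaving out 1 sample gave -0.095 to 0.075 for Ube2n, -0.20 to 0.013 for that Dusp6 probe set and -0.36 to 0.71 for Cradd. The cause of these changes was not tested. No paired analysis was possible because the labels give the samples of the 2 lines no shared numbers. Both Cradd probe sets and the second Dusp6 probe set lay near the lower limit of the table, so their changes are poorly measured. The same holds for Mrpl42 and Kera among the other genes of the stretch, for Epyc in the number-titled samples and for several genes of the flanks.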
